A study of Mus musculus with 6 samples.

Results

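Cd209a-positive dendritic cells (Cd209a+ DCs) of the mouse calvaria were described across age and anatomic site. Cd209a encodes a C-type lectin of the DC-SIGN family, which in mice marks a subset of conventional and monocyte-related dendritic cells. The cells were picked by transcripts. A cell entered the gate with at least 1 UMI (a counted RNA molecule) of Cd209a and at least 20 UMIs summed over the MHC class II genes H2-Aa, H2-Ab1, H2-Eb1 and Cd74. It also had fewer than 3 UMIs of the complement genes C1qa, C1qb and C1qc and no UMI of the B cell gene Cd79a. Of 37576 cells that passed quality control (QC cells), 419 met the rule, which is 1.12% with an exact 95% binomial interval of 1.01 to 1.23%. Because these genes chose the cells, their levels are given as description and were not tested.

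The libraries came from wild-type C57BL/6 mice that were 2 (02m), 12 (12m) or 18 months old (18m) and had no treatment. At each age, bone marrow adjacent to the suture, with the suture mesenchyme itself, was collected as CBMA, and marrow of parietal bone distant from the suture as CBMD. Each age was a pool of 6 to 8 mice, stated to be male, and both sites of an age may hold the same mice. Every age and site is therefore 1 library, so no test across mice was possible between ages, and intervals there cover counting error only. The gate held 63, 38 and 108 cells at 02m, 12m and 18m for CBMA, with 69, 51 and 90 cells for CBMD.

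Dendritic cells take up antigen, load peptides onto MHC class II molecules and show them to T cells. Conventional dendritic cells arise from marrow progenitors under the cytokine receptor Flt3, and their type 2 subset (cDC2) presents mainly to CD4+ T cells. Monocytes recruited through the chemokine receptor Ccr2 can also take on a dendritic cell program in mice, and such cells often share Cd209a, Clec10a and Mgl2 with cDC2.

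The 6 libraries held 261183614 UMIs, between 16031737 and 66264495 each, and the gated cells held 4184450 of them, between 358052 and 1115000 per library. A gated cell had a median of 8284.5 to 10167 UMIs, 2560.5 to 3092 genes and 1.41 to 2.76% mitochondrial UMIs, depending on the library. Both 12m libraries went against the stated sex. Xist, which only female cells make, had a UMI in 57.9% of the gated cells of CBMA_12m and 68.6% of those of CBMD_12m, and in no gated cell of 02m or 18m. Counts of genes called between gates are therefore also given without them, and 18m was compared with 02m directly. In every comparison of 12m with another age below, age and sex cannot be told apart. Transcripts of other cell types were seen in the gated cells. The neutrophil gene S100a8 had a UMI in 86.6% of Cd209a+ DCs and in 86.3% of T cells. The immunoglobulin gene Igkc had one in 57.5% of Cd209a+ DCs and 66.1% of T cells. Neither was therefore read as a marker of the gated cells. How much came from free RNA and how much from doublets was not tested. Of the gated cells, 21 (5.01%) were among the highest doublet scores. In CBMA_02m these were 6 of 63 gated cells (9.52%), against 1.96 to 6.48% in the other libraries. No gated barcode occurred in more than 1 library.

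Few cells lay near the limits of the rule. Exactly 1 Cd209a UMI was seen in 45 gated cells (10.7%), and 374 had 2 or more. The MHC class II sum was 20 to 24 UMIs in 4 gated cells, while 3 cells at 15 to 19 UMIs fell outside. C1q sums of 1 to 2 UMIs occurred in 17 gated cells, and 1 cell at 3 to 4 UMIs was kept out. Among all QC cells, 649 had a Cd209a UMI, and 191 of these were left out for an MHC class II sum under 20, 35 for C1q and 5 for Cd79a. The median number of Cd209a UMIs per gated cell was 5, 5.5 and 9 at 02m, 12m and 18m for CBMA, with 6, 6 and 7 for CBMD. The median MHC class II sum was 189, 460 and 446 UMIs for CBMA, with 341, 338 and 347 UMIs for CBMD.

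The label was checked against marker genes outside the rule. Ccr2 had a UMI in 94.5% of Cd209a+ DCs, against 5.30% of B cells, and the signal-regulatory receptor gene Sirpa, a cDC2 marker, in 80.7%. Flt3 was seen in 72.3% of Cd209a+ DCs (66.7 to 77.8% over the libraries), against 17.6% of classical monocytes and 1.52% of T cells. Zbtb46, a transcription factor that marks the conventional lineage, was seen in 17.2% (11.8 to 21.7%), against 0.584% of monocytes. Genes of other dendritic cell types were rare. The cDC1 gene Xcr1 had a UMI in 3 cells (0.716%), the migratory gene Ccr7 also in 3 cells, and Siglech of plasmacytoid dendritic cells in 3.10%. Clec9a, a cDC1 gene that dendritic cell precursors also carry, was seen in 13.1%. The T cell gene Cd3e (0.477%) and the B cell gene Ms4a1 (0.239%) were near 0. None of these markers went against the label, and Sirpa, given without its share in other gates, is description only. Median depth was 8284.5 to 10167 UMIs in Cd209a+ DCs, 7057 to 9944 in monocytes, 4569.5 to 6220.5 in T cells and 4331 to 6237 in B cells, so depth also differed between these gates.

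The marker lists of other cell types were summed in the gated cells as CPM, the UMIs of a gene for every 1000000 UMIs of those cells. The 9 B cell genes summed to 259 to 1416 CPM with Cd79a (barred by the rule) and Pax5 at 0. The 9 T and NK cell genes summed to 1.27 to 38.6 CPM, and the 12 macrophage genes to 363 to 581 CPM with Mertk and Cd5l at 0. The 10 neutrophil genes summed to 20000, 11417 and 2309 CPM at 02m, 12m and 18m for CBMA, with 1914, 8710 and 2937 CPM for CBMD, against 67971 to 128130 CPM in the ungated QC cells. The gated cells of CBMA_02m were thus high for neutrophil transcripts among the gated cells of the libraries. Camp, a granule gene, stood at 2289.6 CPM in the gated cells of CBMA_02m and at 11.4 CPM in those of CBMD_02m. CBMA_02m is also the base of every CBMA ratio over 02m below.

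As a share of QC cells, Cd209a+ DCs were more frequent in older calvaria at both sites. CBMA cells of 02m held 0.734% of them (0.565 to 0.938%), those of 12m 1.40% (0.991 to 1.91%) and those of 18m 1.49% (1.23 to 1.80%). CBMD cells of 02m held 0.867% (0.675 to 1.10%), those of 12m 1.14% (0.852 to 1.499%) and those of 18m 1.36% (1.09 to 1.67%). The ratio of 18m over 02m was 2.03 (1.48 to 2.82) in CBMA and 1.57 (1.13 to 2.18) in CBMD. The ratio of 12m over 02m was 1.90 (1.24 to 2.89) in CBMA and 1.32 in CBMD, where the interval of 0.899 to 1.92 includes 1. With each QC cell thinned to 2000 UMIs, it was 3.13 (1.83 to 5.30) in CBMA and 2.11 (1.28 to 3.48) in CBMD. The share of QC cells depends on every other cell type in the suspension, so a second denominator was used.

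Among cells high in MHC class II and without Cd79a, the order turned round. Of 163, 112 and 492 such cells in CBMA, Cd209a+ DCs were 38.7% of those at 02m (31.1 to 46.6%), 33.9% at 12m (25.3 to 43.5%) and 21.95% at 18m (18.4 to 25.9%). Of 155, 167 and 330 such cells in CBMD, they were 44.5% at 02m (36.5 to 52.7%), 30.5% at 12m (23.7 to 38.1%) and 27.3% at 18m (22.5 to 32.4%). The ratio of 18m over 02m was 0.568 (0.412 to 0.788) in CBMA and 0.613 (0.443 to 0.851) in CBMD. Other MHC class II-high cells were thus more numerous still at 18m. C1q-positive ones were 174 and 103 cells at 18m in CBMA and CBMD, against 14 and 15 cells at 02m.

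**Figure D1:**
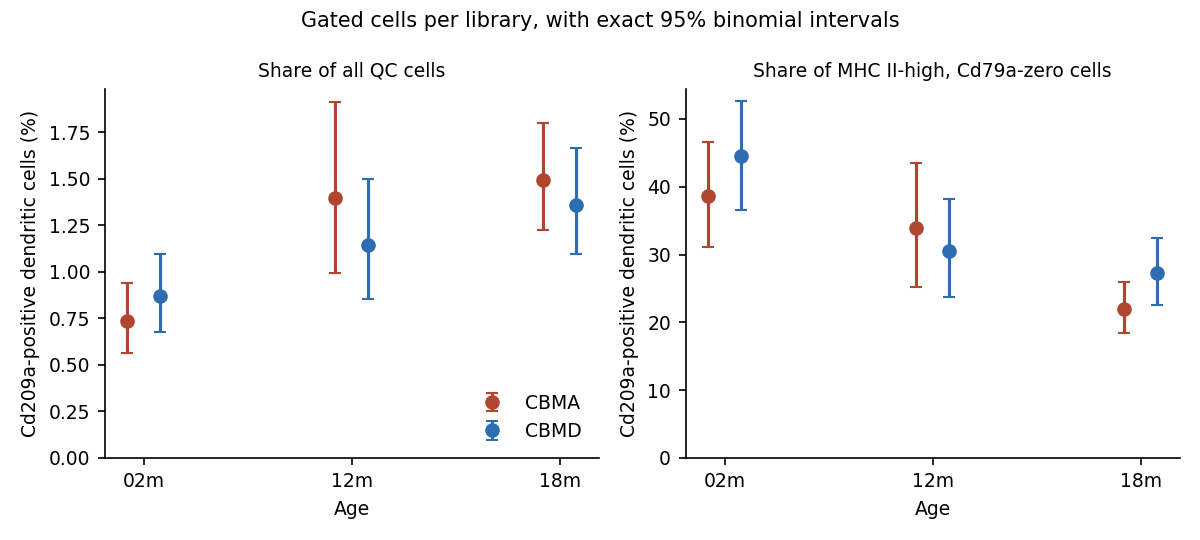
Cd209a-positive dendritic cells per library at 02m, 12m and 18m for both CBMA and CBMD, as percent of all QC cells (left) and as percent of MHC II-high, Cd79a-zero cells (right), with exact 95% binomial intervals. The share of QC cells was 1.49% in CBMA and 1.36% in CBMD at 18m, against 0.734% and 0.867% at 02m, while the share of MHC II-high cells was 21.95% and 27.3% at 18m, against 38.7% and 44.5% at 02m.

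To ask how Cd209a+ DCs differ from their neighbors, UMI sums per library were compared with 3 other gates by edgeR's quasi-likelihood test with the library as a block (n = 6 libraries, Benjamini-Hochberg adjustment over all genes tested). A gene was called at an adjusted p under 0.05 and at least 2-fold, and the genes that define a gate were not tested. The gates were 5308 classical monocytes (Ly6c2 and Ccr2 transcripts, low MHC class II), 377 C1q-positive MHC class II-high cells, and 623 MHC class II-high cells with no Cd209a UMI (Cd209a-zero cells). P-values measure the spread between these libraries, in which mice were pooled.

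Against classical monocytes, 270 of 8318 genes were higher in Cd209a+ DCs (3.25%) and 316 were lower (3.80%), and 475 and 450 without the 12m libraries. Mgl2, a galactose-binding lectin gene, had the largest difference among the named genes, at 295 ± 183 CPM in Cd209a+ DCs and 0.491 ± 0.417 CPM in monocytes (SD, n = 6; log2 10.22 ± 0.25 SE, edgeR adjusted p = 4.7e-14). Its neighbor on chromosome 11, Clec10a, was at 459 ± 177 CPM in Cd209a+ DCs and 26.4 CPM in monocytes (log2 4.15 ± 0.19). Reads could be shared between this similar pair of genes, and the split between them is uncertain. Flt3 was at 185 CPM in Cd209a+ DCs and 26.2 CPM in monocytes (log2 2.86 ± 0.12), and Zbtb46 at 21.4 and 0.696 CPM (log2 4.85 ± 0.29). Irf4, a transcription factor that cDC2 require, was higher by 2.40 on the log2 scale. Of 6 cDC core genes tested 5 were higher and none lower (median log2 2.96), and of 12 cDC2 genes 9 were higher and none lower (3.25), against a median of 0.00 over all genes. Without the 12m libraries the counts were 8 of 9 and 10 of 13.

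MHC class II genes outside the rule went with it. Ciita, the coactivator that switches on MHC class II genes, was at 259 ± 124 CPM in Cd209a+ DCs and 2.90 CPM in monocytes (log2 6.72 ± 0.12, edgeR adjusted p = 2.1e-15). H2-Oa, a chain of the DO molecule that restrains peptide loading, was at 95.2 ± 27.7 CPM in Cd209a+ DCs and 2.04 CPM in monocytes (log2 5.67 ± 0.17, edgeR adjusted p = 6.3e-13). H2-DMa, a chain of the peptide-loading DM molecule, was higher by 2.49 on the log2 scale, with 818 ± 81.0 CPM in Cd209a+ DCs and 160 ± 19.1 CPM in monocytes. Of 13 MHC class II accessory genes 8 were higher and none lower (median log2 1.55), and without the 12m libraries 8 of 14. These genes are switched on together with those of the rule, which required a high MHC class II sum of Cd209a+ DCs and a low sum of monocytes.

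Promoters of this family are shown because MHC class II genes both chose the cells and led the differences from monocytes. MHC class II promoters carry an X box followed by a Y box, an inverted CCAAT element bound by the factor NF-Y. In the windows below, from RefSeq on GRCm38.p6, capitals mark the Y box CTGATTGG. It lies 51 bases before the transcript start in H2-Aa (chr17:34287827-34287914, minus strand), 62 before in H2-Eb1 (chr17:34305765-34305852, plus strand) and 46 before in H2-Oa (chr17:34092293-34092378, plus strand).
H2-Aa: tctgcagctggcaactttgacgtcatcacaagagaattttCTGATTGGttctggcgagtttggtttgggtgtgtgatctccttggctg
H2-Eb1: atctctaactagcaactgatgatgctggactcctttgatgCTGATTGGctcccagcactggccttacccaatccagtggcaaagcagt
H2-Oa: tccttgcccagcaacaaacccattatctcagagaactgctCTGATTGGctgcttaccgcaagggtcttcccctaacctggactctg
Searched on both strands from 250 bases before to 50 after the start, these letters occur for 1271 of 27025 genes with a promoter (4.70%). Of 12 matched MHC class II accessory genes 1 held them, H2-Oa (8.33%). A match is a description of the sequence and not a site shown to be used here.

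Monocyte genes were lower in Cd209a+ DCs but not absent. Vcan, a matrix proteoglycan gene, was at 12.3 CPM in Cd209a+ DCs and 268 CPM in monocytes (log2 -4.38 ± 0.20), and Chil3, a chitinase-like secreted protein gene, at 163 and 2421 CPM (log2 -3.94 ± 0.31). Fn1 and F13a1 were lower by log2 values of -2.59 and -1.80. Of 10 monocyte genes 5 were lower and none higher, with or without the 12m libraries. The monocytes were chosen by Ly6c2 and Ccr2, so this count is not independent of the gates. Csf1r, a growth factor receptor of monocytes and macrophages, was at 170 CPM in Cd209a+ DCs and 226 CPM in monocytes and was not called (log2 -0.35 ± 0.11). Of 10 neutrophil genes 9 were lower in Cd209a+ DCs (median log2 -1.59), and 7 were without the 12m libraries. Without the library block Lcn2, Ltf, Ly6g, Ngp, Retnlg, S100a8 and S100a9 of this list lost their call. Other leading genes of Cd209a+ DCs were the mannose receptor Mrc1 (138 CPM, against 6.02 CPM in monocytes), the NK cell receptor chain Klrd1 (171 ± 51.5 CPM, against 11.6 CPM) and the cyclin Ccnd1 (253 CPM, against 4.93 CPM).

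Against C1q-positive cells, 244 of 6459 genes were higher in Cd209a+ DCs (3.78%) and 377 lower (5.84%), and 292 and 408 without the 12m libraries. Macrophage genes were low in Cd209a+ DCs. Of 5 tested 4 were lower (median log2 -2.59), and without the 12m libraries 4 of 6 were lower and 1 was higher. The 2 gates were split by C1q genes, which macrophages carry, so low macrophage genes are not independent of the rule. Mertk, which clears dying cells, had no UMI in Cd209a+ DCs of any library and 98.6 ± 56.6 CPM in C1q-positive cells. Csf1r was at 170 CPM in Cd209a+ DCs and 569 CPM in C1q-positive cells (log2 -1.77 ± 0.15). Trem2, a lipid-sensing receptor, and Pf4, a chemokine of platelets and resident macrophages, were lower by log2 values of -5.49 and -6.02. Of 10 chemokine genes 8 were lower and none higher (median log2 -1.72), and without the 12m libraries 6 of 9 were. Of 20 lysosomal protease genes 7 were lower and none higher (-0.89), with or without them. Without the library block the chemokine genes Ccl3, Ccl4 and Cxcl9 lost their call.

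All 6 cDC core genes tested were higher than in C1q-positive cells (median log2 3.26), and without the 12m libraries 6 of 7 were. Flt3 was at 185 ± 40.9 CPM in Cd209a+ DCs and 14.4 ± 8.91 CPM in C1q-positive cells (log2 3.63 ± 0.23, edgeR adjusted p = 3.5e-10). Itgb7, an integrin chain of gut-homing cells, was at 349 CPM in Cd209a+ DCs and 29.4 CPM in C1q-positive cells (log2 3.64 ± 0.23), and Klrd1 was higher by 5.54 ± 0.36. Mgl2 was not called (log2 0.55), and it had a UMI in 31.5% of Cd209a+ DCs and 35.5% of C1q-positive cells. The share in monocytes was 0.245%. The C1q-positive gate held only 14 and 15 cells in the 02m libraries of CBMA and CBMD.

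Cd209a-zero cells gave the fewest calls of the 3 gates. Here 54 of 6920 genes were higher in Cd209a+ DCs (0.780%) and 108 were lower (1.56%), and 49 and 104 without the 12m libraries. Clec10a was at 459 ± 177 CPM in Cd209a+ DCs and 63.0 ± 35.4 CPM in Cd209a-zero cells (log2 2.86 ± 0.16, edgeR adjusted p = 1.9e-08), and Mgl2 at 295 and 13.3 CPM (log2 4.89 ± 0.30, edgeR adjusted p = 6.2e-08). Cd7, a receptor known from T and NK cells, Mrc1 and Klrd1 were higher by 2.91, 2.34 and 2.21 on the log2 scale. Of 11 cDC2 genes 6 were higher and none lower (median log2 1.28), and without the 12m libraries 7 of 12. C-type lectins as a list did not go with Clec10a and Mgl2, since 4 of 16 were higher and 1 lower (median log2 -0.43). Flt3 stood at 185 CPM in Cd209a+ DCs and 100 CPM in Cd209a-zero cells and stayed under the 2-fold limit (log2 0.93 ± 0.16).

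Genes of several lists were among those lower than in Cd209a-zero cells. Ccl5, a chemokine gene, was at 15.2 CPM in Cd209a+ DCs and 444 CPM in Cd209a-zero cells (log2 -4.30 ± 0.54, edgeR adjusted p = 9.4e-05). Irf8, which drives cDC1 and plasmacytoid development, was at 198 ± 90.3 CPM in Cd209a+ DCs and 539 ± 233 CPM in Cd209a-zero cells (log2 -1.46 ± 0.13), and the cDC1 sensor gene Tlr3 was lower by a log2 value of -2.30. Treml4, Eno3 and Ace, which nonclassical monocytes carry, were lower by -2.77, -2.52 and -2.38. Of 8 cDC1 genes 3 were lower, and of 7 nonclassical monocyte genes 4 were lower, with none higher in either list. Without the 12m libraries 3 of 8 and 3 of 6 were lower. Of 17 genes of the interferon gamma response 5 were lower, of 20 MHC class I pathway genes 3, and of 27 transcription factors of dendritic cells 5, with 1 of the last list higher. Without the library block 31 genes were higher and 35 lower. Of 58 single genes, 30 then lost their call, among them Klrd1 and Eno3.

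**Figure D2:**
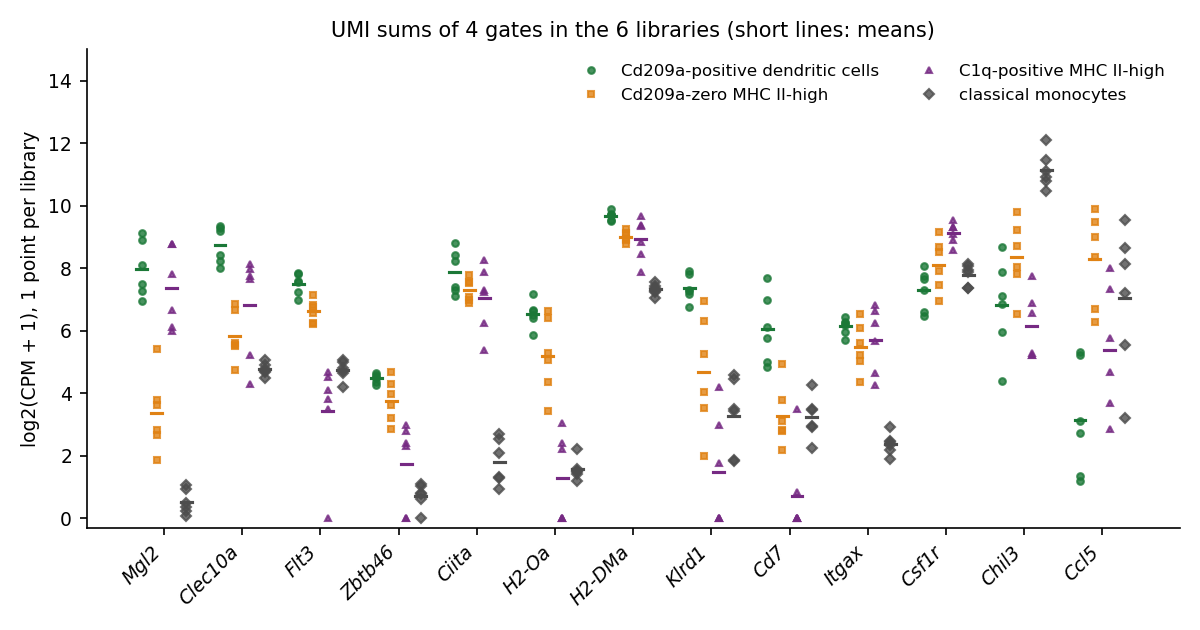
Levels of 13 genes as log2(CPM + 1) in 4 gates, 1 point per library and a short line for the mean of the 6 libraries. Mgl2, Clec10a, Flt3 and Zbtb46 stood above monocytes in every library, Csf1r lay highest on average in C1q-positive cells, and Ccl5 lay highest on average in Cd209a-zero cells.

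Cd209a+ DCs were not uniform for Ly6c2, which marks classical monocytes and their recent progeny. Ly6c2 had a UMI in 56.3% of them, against 27.0% of B cells, which should lack it, and 63.4% of Cd209a-zero cells. In CBMA it was seen in 79.4% of the cells of 02m (67.3 to 88.5%), 57.9% of 12m (40.8 to 73.7%) and 47.2% of 18m (37.5 to 57.1%). In CBMD it was seen in 65.2% of the cells of 02m (52.8 to 76.3%), 58.8% of 12m (44.2 to 72.4%) and 42.2% of 18m (31.9 to 53.1%). The 18m intervals lay below the 02m intervals at CBMA and met them at CBMD. With each cell thinned to 2000 UMIs the shares were 60.3%, 21.1% and 32.4% for CBMA, with 48.5%, 25% and 19.1% for CBMD. Thinning left out 0 to 3 cells of a library. It kept the 02m libraries highest at both sites, but the order of 12m and 18m changed in CBMA. Ly6c1 and Ly6c2 are near-identical, and reads of one could be counted for the other.

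Splitting the cells by Ly6c2 gave 22 to 51 positive and 13 to 57 zero cells per library. In the same block fit 62 of 4386 genes were higher in Ly6c2-positive cells (1.41%) and 38 lower (0.866%), and 89 and 61 without the 12m libraries. Ly6c2-positive cells carried monocyte and division genes. Chil3 was at 217 CPM in Ly6c2-positive cells and 29.9 CPM in Ly6c2-zero cells (log2 2.75 ± 0.27, edgeR adjusted p = 2.3e-06). F13a1, Fn1 and Lyz2 were higher by 1.89, 1.86 and 1.56 on the log2 scale. Birc5, an inhibitor of apoptosis that acts in mitosis, was at 137 CPM in Ly6c2-positive cells and 26.7 CPM in Ly6c2-zero cells (log2 2.02). Of 11 monocyte genes 6 were higher and none lower (median log2 1.48), with or without the 12m libraries, and of 19 genes of G2 and M phase 10 were higher and none lower, or 14 of 28 without the 12m libraries. Ly6c2 is itself a monocyte marker, so the monocyte count is not independent of the split.

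Some antigen presentation genes were lower in Ly6c2-positive cells. Of 11 MHC class II accessory genes 3 were lower (median log2 -0.41), and without the 12m libraries 4 of 12 were. Of 12 C-type lectins 2 were lower (-0.24), and of 19 MHC class I pathway genes none was called. Over all genes 0.866% were lower. Mgl2 was at 131 CPM in Ly6c2-positive cells and 591 CPM in Ly6c2-zero cells (log2 -2.08), and H2-Oa at 64.8 and 180 CPM (log2 -1.44 ± 0.25). The maturation marker Cd83, the integrin Itgax and H2-DMb2 were lower in Ly6c2-positive cells by log2 values of -1.93, -1.75 and -1.53. Flt3 was at 162 CPM in Ly6c2-positive cells and 235 CPM in Ly6c2-zero cells and was not called (log2 -0.55 ± 0.15), and none of 5 cDC core genes tested was called. Of 10 cDC2 genes 3 were lower and none higher, and without the 12m libraries 6 of 12 were. Cells with fewer UMIs show Ly6c2 less often. The median depth was 8340.5 to 11796.5 UMIs in Ly6c2-positive cells and 5066.5 to 9894 UMIs in Ly6c2-zero cells, and the part of depth was not tested. Of 7 neutrophil genes 5 were also higher in Ly6c2-positive cells, and 3 were without the 12m libraries, and their part was not tested. Without the library block 11 genes were higher and 15 lower, and 30 of 47 single genes lost their call, among them Birc5, F13a1, Lyz2, Cd83 and H2-Oa.

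Other shares of cells moved with age. Fcgr1, the high-affinity IgG receptor that separates monocyte-derived from conventional dendritic cells in mice, was seen in 55.6%, 15.8% and 34.3% of Cd209a+ DCs of CBMA and 55.1%, 15.7% and 34.4% of those of CBMD at 02m, 12m and 18m. The proliferation marker Mki67 was seen in 30.2%, 26.3% and 17.6% of CBMA cells and 34.8%, 17.6% and 13.3% of CBMD cells. Clec10a was seen in 60.3%, 84.2% and 85.2% of CBMA cells and 68.1%, 76.5% and 82.2% of CBMD cells. Thus Fcgr1 and Mki67 were most frequent and Clec10a least frequent at 02m, at both sites. Both directions between 18m and 02m held after thinning, where the shares of 02m, 12m and 18m were 23.8%, 2.63% and 12.0% for Fcgr1, 14.3%, 10.5% and 6.48% for Mki67 and 33.3%, 68.4% and 46.3% for Clec10a in CBMA. In CBMD they were 22.1%, 2.08% and 16.9% for Fcgr1, 17.6%, 8.33% and 11.2% for Mki67 and 35.3%, 45.8% and 49.4% for Clec10a. T cells, which should lack them, showed Fcgr1 in 0.829% and Clec10a in 0.829% of cells. Mki67 is given without such a background share.

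**Figure D3:**
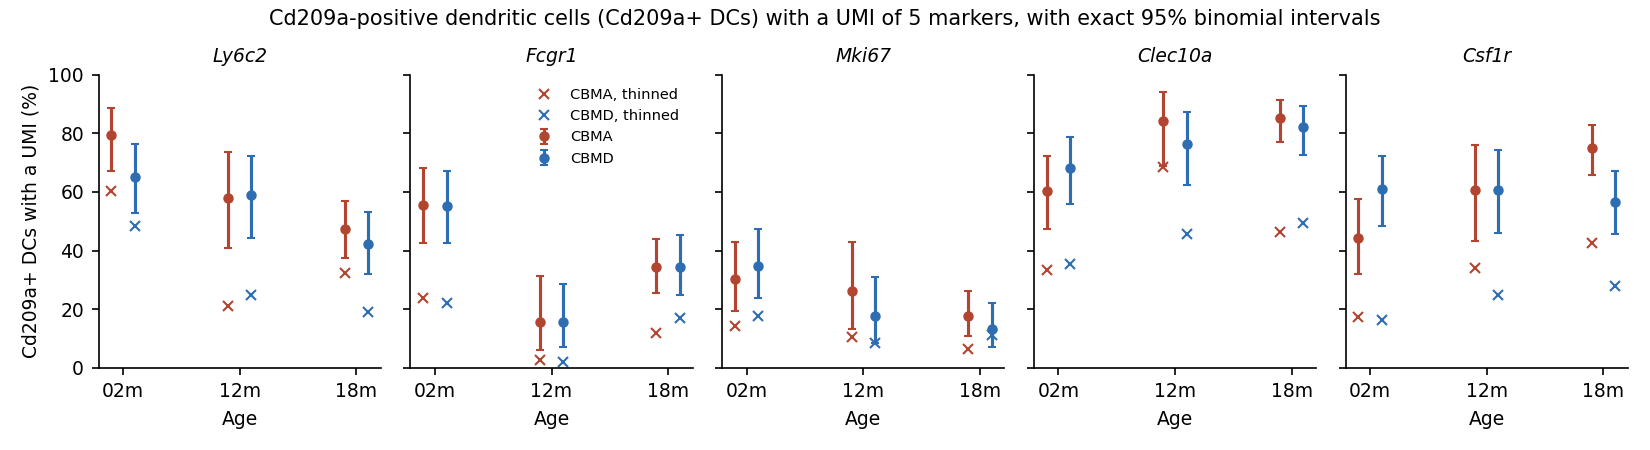
Percent of Cd209a+ DCs with at least 1 UMI of 5 genes at 02m, 12m and 18m for both CBMA and CBMD (points with exact 95% binomial intervals), and the same after each cell was thinned to 2000 UMIs (crosses). Ly6c2 was seen in 47.2% (CBMA) and 42.2% (CBMD) of cells at 18m, against 79.4% and 65.2% at 02m, and Clec10a in 85.2% and 82.2% at 18m, against 60.3% and 68.1% at 02m.

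Levels between ages were compared as CPM of the summed UMIs of Cd209a+ DCs, with exact 95% Poisson intervals of the ratio. A gene was measured when the libraries compared held 50 UMIs of it together, and it was called higher or lower when the ratio reached 1.5-fold. At 18m against 02m, 884 of 4644 measured genes were higher in CBMA (19.0%) and 701 lower (15.1%), and in CBMD 758 of 4191 were higher (18.1%) and 798 lower (19.0%). At 12m against 02m, 22.8% of 2982 genes were higher and 18.5% lower in CBMA, and 23.2% of 3660 were higher and 15.6% lower in CBMD. At 18m against 12m the shares were smaller, with 7.66% of 4191 genes higher and 13.6% lower in CBMA and 7.25% of 3698 higher and 14.1% lower in CBMD. Of 4008 genes measured at both sites, 380 were higher and 378 lower at 18m in both, and 31 went opposite ways. The median log2 ratio over all measured genes was 0.04 in CBMA and 0.02 in CBMD at 18m against 02m, 0.07 and 0.06 at 12m against 02m, and -0.10 at both sites at 18m against 12m. In classical monocytes at 18m against 02m, 20.9% of 11413 genes were higher and 9.39% lower in CBMA (median log2 0.14), and 19.6% of 11550 were higher and 12.1% lower in CBMD (0.12). The comparisons with 02m share the 02m library of their site, and Cd209a+ DCs and monocytes of a library came from 1 suspension.

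Clec10a was higher at 18m at both sites. It stood at 259, 654 and 580.3 CPM at 02m, 12m and 18m for CBMA, with 299, 344 and 618 CPM for CBMD. The ratio of 18m over 02m was 2.24 (1.89 to 2.68) in CBMA and 2.07 (1.77 to 2.43) in CBMD. Mrc1 was at 42.1, 201 and 149 CPM for CBMA, with 91.5, 155 and 191 CPM for CBMD, and its ratio was 3.54 (2.35 to 5.53) in CBMA and 2.09 (1.56 to 2.80) in CBMD. The ion channel-like gene Tmem176a, which cDC2 carry, had ratios of 2.82 in CBMA and 1.54 in CBMD. Mgl2 went opposite ways. It was at 154, 276 and 561 CPM for CBMA, with 479, 122 and 178 CPM for CBMD, giving 3.63 (2.93 to 4.54) in CBMA and 0.372 (0.304 to 0.453) in CBMD.

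As a list, cDC2 genes leaned upward in CBMA and were mixed in CBMD. At 18m 8 of 11 measured genes were higher in CBMA and 1 was lower (median log2 0.99), and in CBMD 4 of 10 were higher and 4 lower (0.35). Of C-type lectins 10 of 13 were higher and none lower in CBMA (0.79), and 3 of 12 were higher and 2 lower in CBMD (0.34). Clec4a3, an inhibitory lectin-like receptor gene, had ratios of 2.23 (1.68 to 2.99) in CBMA and 1.37 (1.07 to 1.75) in CBMD, and Clec4a1 had 1.54 and 1.43. The same lists in classical monocytes had medians of 0.59 in CBMA and 0.78 in CBMD for cDC2 genes and 0.47 and 0.39 for lectins. Of 5 cDC core genes none was past the limit in CBMA, and Zbtb46 had ratios of 1.11 and 1.05 in CBMA and CBMD. Flt3 was at 151, 187 and 192 CPM for CBMA, with 125, 224 and 230.0 CPM for CBMD, with ratios of 1.27 (0.994 to 1.63) and 1.85 (1.44 to 2.39).

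Ciita was at 139, 447 and 342 CPM at 02m, 12m and 18m for CBMA, with 158, 169 and 299.6 CPM for CBMD. Its ratio of 18m over 02m was 2.46 (1.95 to 3.14) in CBMA and 1.90 (1.52 to 2.38) in CBMD. H2-DMa was at 953 CPM at 18m and 728 CPM at 02m in CBMA (1.31) and at 824 and 822 CPM in CBMD (1.00). Of 11 accessory genes 4 were higher and none lower in CBMA (median log2 0.25), and 1 of 12 was higher and 1 lower in CBMD (-0.07). MHC class I pathway genes leaned downward, with 7 of 19 lower and 2 higher in CBMA (-0.48) and 9 of 17 lower and 1 higher in CBMD (-0.63). Psmb8, an immunoproteasome subunit that trims peptides for MHC class I, had ratios of 0.601 (0.525 to 0.688) in CBMA and 0.612 (0.529 to 0.707) in CBMD. Of 7 costimulatory genes 2 were higher and 2 lower in CBMA, and of 7 in CBMD none was higher and 1 was lower. Cd86, a costimulatory ligand, lay between 16.8 and 73.2 CPM in every library.

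Transcription factors of dendritic cells leaned upward, with 12 of 23 measured genes higher and 1 lower at 18m in CBMA (median log2 0.65) and 9 of 24 higher and 2 lower in CBMD (0.34). Zeb2, a repressor that favors cDC2 over cDC1 in mice, was at 337, 759.7 and 598 CPM at 02m, 12m and 18m for CBMA, with 333, 565 and 610.5 CPM for CBMD. Its ratio of 18m over 02m was 1.78 (1.52 to 2.08) in CBMA and 1.83 (1.57 to 2.14) in CBMD. Klf2, a factor of quiescence and migration, had 1.76 (1.35 to 2.31) in CBMA and 1.92 (1.49 to 2.50) in CBMD. At 18m Klf2 was lower in Cd209a+ DCs than in other QC cells of CBMA, CBMD or both. Irf8 was at 291, 193 and 93.3 CPM for CBMA, with 156, 321 and 134 CPM for CBMD, and it thus was lowest at 18m at both sites but highest at 12m in CBMD. Its ratio of 18m over 02m was 0.320 (0.249 to 0.409) in CBMA and 0.857 (0.655 to 1.12) in CBMD. Irf4 had 2.56 (1.52 to 4.53) in CBMA and 0.663 in CBMD, where the interval of 0.396 to 1.09 includes 1. Spi1, the myeloid master factor PU.1, stayed under the 1.5-fold limit (0.826 and 0.786). In C1q-positive cells 16 of 22 of these transcription factors were higher and 1 lower at 18m in CBMA (median log2 0.98). In CBMD 5 of 17 were higher and 2 lower (0.23). Over all genes of C1q-positive cells 30.7% and 28.1% were higher, and their 02m libraries held only 14 and 15 cells. The upward lean was thus not particular to Cd209a+ DCs.

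Of 7 measured chemokine receptor genes 6 were higher at 18m in CBMA (median log2 0.94), and of 6 in CBMD 2 were higher (0.39), with none lower at either site. Cxcr4, which retains cells in marrow, was at 60.8, 162 and 125 CPM at 02m, 12m and 18m for CBMA, with 131, 331 and 133 CPM for CBMD, with ratios of 18m over 02m of 2.05 (1.43 to 3.01) and 1.01 (0.765 to 1.34). Of 5 Fc receptor genes 2 were higher and 1 lower in CBMA, and 1 was higher and 3 lower in CBMD. Fcgr3, an activating IgG receptor, was at 37.4, 137 and 151 CPM for CBMA, with 49.6, 79.3 and 123 CPM for CBMD, with ratios of 4.03 (2.62 to 6.46) and 2.47 (1.69 to 3.68). At 18m Fcgr3 was lower in Cd209a+ DCs than in other QC cells of CBMA, CBMD or both. Fcgr2b, the inhibitory IgG receptor, had 2.77 in CBMA and 1.16 (0.958 to 1.41) in CBMD. In C1q-positive cells 4 of 7 chemokine receptor genes were higher and none lower at 18m in CBMA, and 2 of 7 higher and 2 lower in CBMD. Of 6 Fc receptor genes in C1q-positive cells 5 were higher and none lower in CBMA, and 1 higher and 1 lower in CBMD.

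Monocyte genes did not move as a block. Ly6c2 was at 1059.9, 346 and 404 CPM at 02m, 12m and 18m for CBMA, with 721, 287 and 270.5 CPM for CBMD, with ratios of 18m over 02m of 0.382 (0.338 to 0.431) and 0.375 (0.319 to 0.440). Without the highest doublet scores its log2 ratio in CBMA was -1.05, against -1.39 with them. Chil3 also was lower at 18m, at 0.338 (0.275 to 0.414) in CBMA and 0.177 (0.0969 to 0.303) in CBMD. In contrast, Ccr2 was at 659, 1198 and 1266 CPM for CBMA, with 688, 815 and 1368 CPM for CBMD, with ratios of 1.92 and 1.99. Csf1r had 2.47 (1.84 to 3.36) in CBMA and 1.61 (1.20 to 2.17) in CBMD, F13a1 had 1.69 and 1.79, and Lyz2 had 2.26 and 1.63. Of 12 measured monocyte genes 7 were higher and 3 lower in CBMA, and 6 higher and 4 lower in CBMD. Ly6c2 and Chil3 at 02m, and F13a1 and Lyz2 at 18m, were lower in Cd209a+ DCs than in other QC cells of CBMA, CBMD or both. Ccr2 was also higher in monocytes, at 1473 CPM at 18m and 721 CPM at 02m in CBMA, and at 1317 and 769.5 CPM for CBMD.

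**Figure D4:**
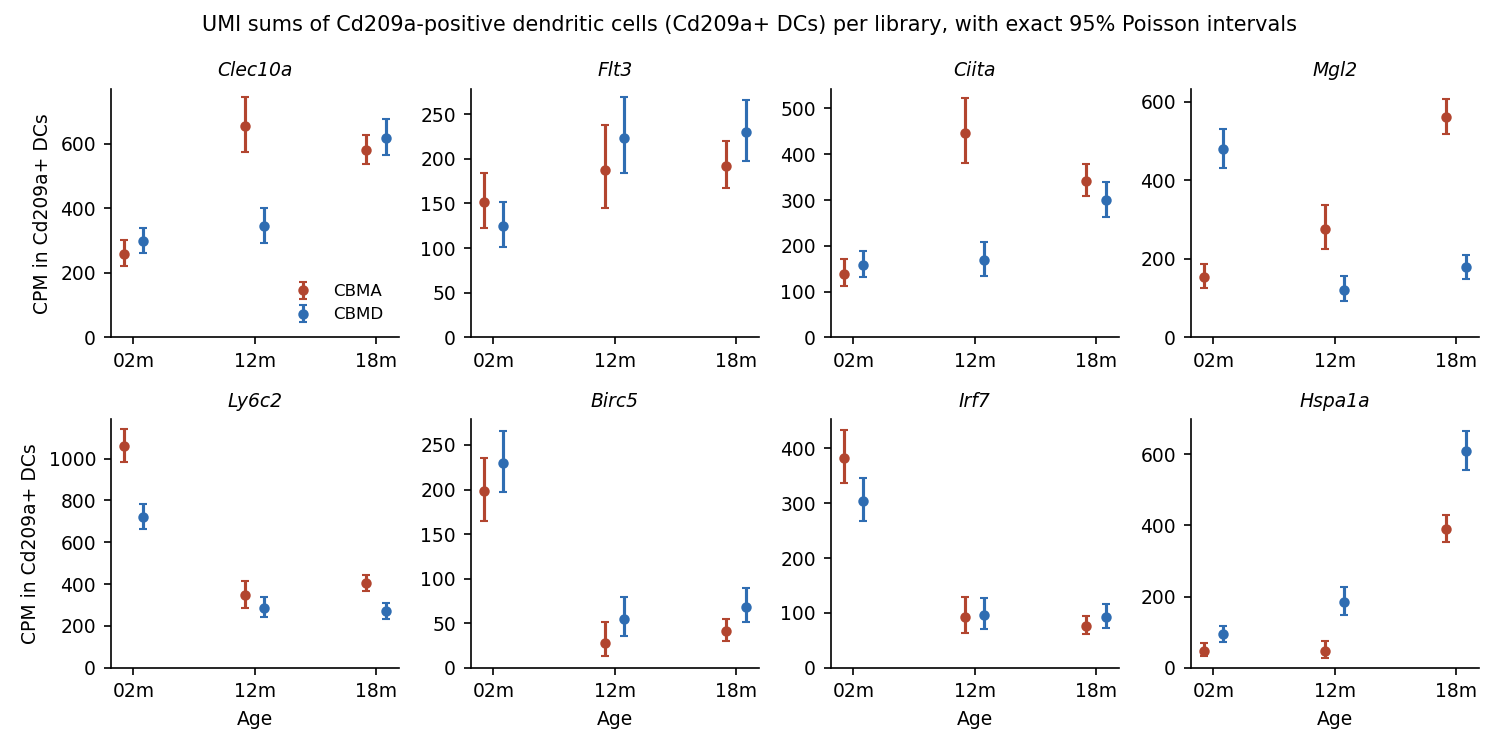
CPM of 8 genes in the summed UMIs of Cd209a+ DCs at 02m, 12m and 18m for both CBMA and CBMD, with exact 95% Poisson intervals. Clec10a and Hspa1a were higher at 18m and Ly6c2, Birc5 and Irf7 lower than at 02m at both sites, while Mgl2 stood at 561 CPM (CBMA) and 178 CPM (CBMD) at 18m, against 154 and 479 CPM at 02m.

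Genes of G2 and M phase were lower in the older libraries. At 18m 22 of 23 measured genes were lower in CBMA (median log2 -1.54) and 19 of 28 in CBMD (-0.86), with none higher at either site. Birc5 was at 198, 27.9 and 41.3 CPM at 02m, 12m and 18m for CBMA, with 230.1, 54.9 and 68.3 CPM for CBMD. Its ratio of 18m over 02m was 0.208 (0.145 to 0.294) in CBMA and 0.297 (0.215 to 0.404) in CBMD. Ube2c, which tags mitotic proteins for degradation, had ratios of 0.153 in CBMA and 0.495 in CBMD. Mki67 was at 110.3 CPM at 18m and 218 CPM at 02m in CBMA (0.506) but at 197 and 199.6 CPM in CBMD (0.988). At 12m 17 of 20 genes in CBMA and 20 of 21 in CBMD were below 02m, against 18.5% and 15.6% of all genes. Between 18m and 12m, 3 of 13 were lower and none higher in CBMA, and 7 of 14 were higher and 1 lower in CBMD.

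In classical monocytes 12 of 31 G2 and M genes in CBMA and 11 of 31 in CBMD were lower at 18m than at 02m (medians -0.42 and -0.49), and none higher, against 9.39% and 12.1% of all monocyte genes lower. Birc5 in monocytes was at 118 CPM at 18m and 216 CPM at 02m in CBMA and at 123 and 226 CPM in CBMD. Whether monocytes and Cd209a+ DCs differ in this was not tested. Of S phase genes 3 of 9 were lower in CBMA (median -0.16) and 4 of 7 in CBMD (-0.72), with none higher, and Pcna, the replication clamp, had ratios of 1.43 and 1.08. The 7 progenitor genes summed to 600.1, 466 and 100.5 CPM at 02m, 12m and 18m for CBMA, with 141, 155 and 77.1 CPM for CBMD. Their part in the cell cycle result was not tested.

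Interferon-stimulated genes were lower at 18m at both sites. In CBMA 24 of 30 measured genes were lower and none higher (median log2 -1.30), and in CBMD 20 of 32 were lower and none higher (-0.97). Irf7, which amplifies the interferon response, was at 383, 92.2 and 77.1 CPM at 02m, 12m and 18m for CBMA, with 305, 95.6 and 92.3 CPM for CBMD. Its ratio of 18m over 02m was 0.201 (0.155 to 0.258) in CBMA and 0.302 (0.229 to 0.395) in CBMD. Isg15, a ubiquitin-like modifier, was at 408, 39.1 and 68.2 CPM for CBMA, with 328, 36.6 and 83.4 CPM for CBMD, with ratios of 0.167 (0.128 to 0.216) and 0.254 (0.191 to 0.335). Ifit3, which restricts viral RNA, had ratios of 0.252 and 0.220, and Bst2, which tethers virus particles to the membrane, had 0.292 and 0.297. Isg15 and Ifit3 were lower in Cd209a+ DCs than in other QC cells at 02m in CBMA, CBMD or both. At 12m 22 of 26 genes in CBMA and 25 of 29 in CBMD were below 02m, against 18.5% and 15.6% of all genes. Age and sex cannot be told apart at 12m. At 18m against 12m, 3 of 22 genes were higher and 2 lower in CBMA, and 12 of 24 were higher and 2 lower in CBMD.

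Lower levels were also seen in classical monocytes, in which 32 of 37 interferon-stimulated genes were lower in CBMA (median -1.95) and 34 of 37 in CBMD (-2.02) at 18m, against 9.39% and 12.1% of all monocyte genes. Irf7 in monocytes was at 63.2 CPM at 18m and 414 CPM at 02m in CBMA, and at 58.2 and 272 CPM in CBMD.

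The promoters of 2 of these genes are shown because the list shares a DNA element. The interferon-stimulated response element, bound by the ISGF3 complex and by IRF factors, was searched as GAAA, any 2 bases and GAAA on both strands from 250 bases before to 50 after the start. Of 26 list genes with a promoter 14 held it in at least 1 promoter (53.8%), against 1079 of all 27025 genes with a promoter (3.99%). In Isg15 (chr4:156200835-156200936, minus strand, GRCm38.p6, RefSeq) 3 overlapping matches lie 78 to 66 bases before the start, and in Ifit3 (chr19:34583333-34583456, plus strand) 2 matches on the opposite strand lie 156 and 122 bases before it. Capitals mark the matches.
Isg15: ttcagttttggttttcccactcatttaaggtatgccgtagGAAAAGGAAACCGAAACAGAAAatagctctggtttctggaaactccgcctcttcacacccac
Ifit3: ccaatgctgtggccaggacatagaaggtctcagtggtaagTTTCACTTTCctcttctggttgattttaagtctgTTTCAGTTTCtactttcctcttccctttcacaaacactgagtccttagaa
Bst2 and Rsad2 also held a match. Rsad2, which blocks viral membranes, had ratios of 0.440 (0.254 to 0.755) in CBMA and 0.929 (0.636 to 1.36) in CBMD, while Bst2 had 0.292 and 0.297. Ratios of genes with and without a match were not compared.

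Nuclear genes of oxidative phosphorylation, the mitochondrial chain that makes ATP, were lower as well. At 18m 30 of 58 were lower in CBMA (median log2 -0.60) and 39 of 58 in CBMD (-0.76), and none was higher. Cox8a, a subunit of cytochrome c oxidase, was at 867, 556 and 510.3 CPM at 02m, 12m and 18m for CBMA, with 872, 588 and 483 CPM for CBMD. Its ratio was 0.589 (0.523 to 0.663) in CBMA and 0.554 (0.487 to 0.628) in CBMD. Transcripts of the mitochondrial genome leaned the other way, with 4 of 9 higher and none lower in CBMA and 5 of 8 higher and 1 lower in CBMD. In monocytes 20 and 22 of 58 nuclear genes were lower in CBMA and CBMD, against 9.39% and 12.1% of all genes. Outside these lists Tmsb10, an actin-binding peptide gene, was at 8416, 5636 and 3177 CPM for CBMA, with 8995, 6095 and 3338 CPM for CBMD, and the cold-inducible Rbm3 had ratios of 0.367 and 0.384. Both were also lower at 18m in other QC cells. There Tmsb10 was at 1740.5 against 5666 CPM in CBMA and 1823 against 6318 CPM in CBMD. Rbm3 was at 247 against 593 CPM in CBMA and 243 against 539 CPM in CBMD.

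Stress and signal-induced genes were higher at 18m. Of 28 immediate early genes 24 were higher and none lower in CBMA (median log2 1.21), and of 29 in CBMD 17 were higher and 2 lower (0.84). Atf3, a stress-induced transcription factor, was at 46.8, 296 and 349.8 CPM at 02m, 12m and 18m for CBMA, with 163, 781 and 576 CPM for CBMD. Its ratio of 18m over 02m was 7.48 (5.16 to 11.2) in CBMA and 3.54 (2.91 to 4.34) in CBMD. Fos was at 131, 689.8 and 659 CPM for CBMA, with 327, 669 and 599 CPM for CBMD, and had ratios of 5.04 and 1.83, and Dusp1, a phosphatase that shuts off MAP kinases, had 5.67 and 2.62. Both were also above 02m at 12m. At that age 18 of 24 list genes in CBMA and 18 of 29 in CBMD were higher, against 22.8% and 23.2% of all genes. Age and sex cannot be told apart at 12m. At 18m in CBMA, CBMD or both, Fos and Dusp1 stood lower in Cd209a+ DCs than in other QC cells. Between 18m and 12m, 4 of 28 were higher and 2 lower in CBMA, against 7.66% and 13.6% of all genes, and 2 of 30 were higher and 7 lower in CBMD, against 7.25% and 14.1%.

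NF-kB targets were also higher at 18m than at 02m. Here 14 of 16 were higher and none lower in CBMA (median log2 1.41), and 10 of 18 were higher and 2 lower in CBMD (0.79). At 12m 10 of 11 in CBMA and 12 of 16 in CBMD were higher than at 02m, against 22.8% and 23.2% of all genes. Between 18m and 12m, 2 of 18 were higher and 5 lower in CBMA, and 1 of 18 was higher and 7 lower in CBMD. Il1b, the inflammatory cytokine gene, was at 10.9, 324 and 169 CPM for CBMA, with 55.9, 246 and 204 CPM for CBMD, with ratios of 15.5 (7.35 to 39.0) and 3.64 (2.59 to 5.20). Tnfaip3, an inhibitor of NF-kB, had 5.54 and 4.71. Il1b and Tnfaip3 were lower in Cd209a+ DCs than in other QC cells at 18m in CBMA, CBMD or both. The part of free RNA in such genes was not tested. Tnf was at 70.1, 72.6 and 78.9 CPM for CBMA, with 96.6, 91.5 and 43.0 CPM for CBMD, so it was not among the genes that rose.

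Heat shock genes were higher at 18m, 8 of 12 at each site, and none was lower (medians 0.74 in CBMA and 0.75 in CBMD). Hspa1a, an inducible HSP70 chaperone, was at 48.3, 47.5 and 390.1 CPM at 02m, 12m and 18m for CBMA, with 94.1, 185 and 609 CPM for CBMD. Its ratio was 8.07 (5.61 to 12.0) in CBMA and 6.48 (5.06 to 8.39) in CBMD. Hspa1a and Hspa1b are near-identical copies, and reads could be counted for either. Hsph1, a cochaperone that resets HSP70, was at 59.2 CPM at 18m and 6.23 CPM at 02m in CBMA and at 91.0 and 7.63 CPM in CBMD. At 12m 2 of 7 heat shock genes in CBMA and 4 of 11 in CBMD were higher than at 02m. Over all genes 22.8% and 23.2% were higher, so these few genes were near that share. A heat shock element was searched as TTC, any 2 bases, GAA, any 2 bases and TTC on both strands. It occurred for 3 of 11 list genes with a promoter (Hsph1, Hspe1 and Hspd1), against 0.662% of all such genes.

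Members of all 3 lists were also higher in classical monocytes. There 22 of 32 immediate early genes, 13 of 19 NF-kB targets and 8 of 13 heat shock genes were higher at 18m in CBMA, and 12 of 32, 10 of 20 and 5 of 13 in CBMD, against 20.9% and 19.6% of all monocyte genes. Of the immediate early genes 1 was lower in CBMA and 3 in CBMD. Hspa1a in monocytes was at 170.5 CPM at 18m and 49.5 CPM at 02m in CBMA and at 222 and 101 CPM in CBMD. These genes respond to enzymatic digestion and handling, and each age was prepared as its own suspension, so age and preparation cannot be told apart.

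**Figure D5:**
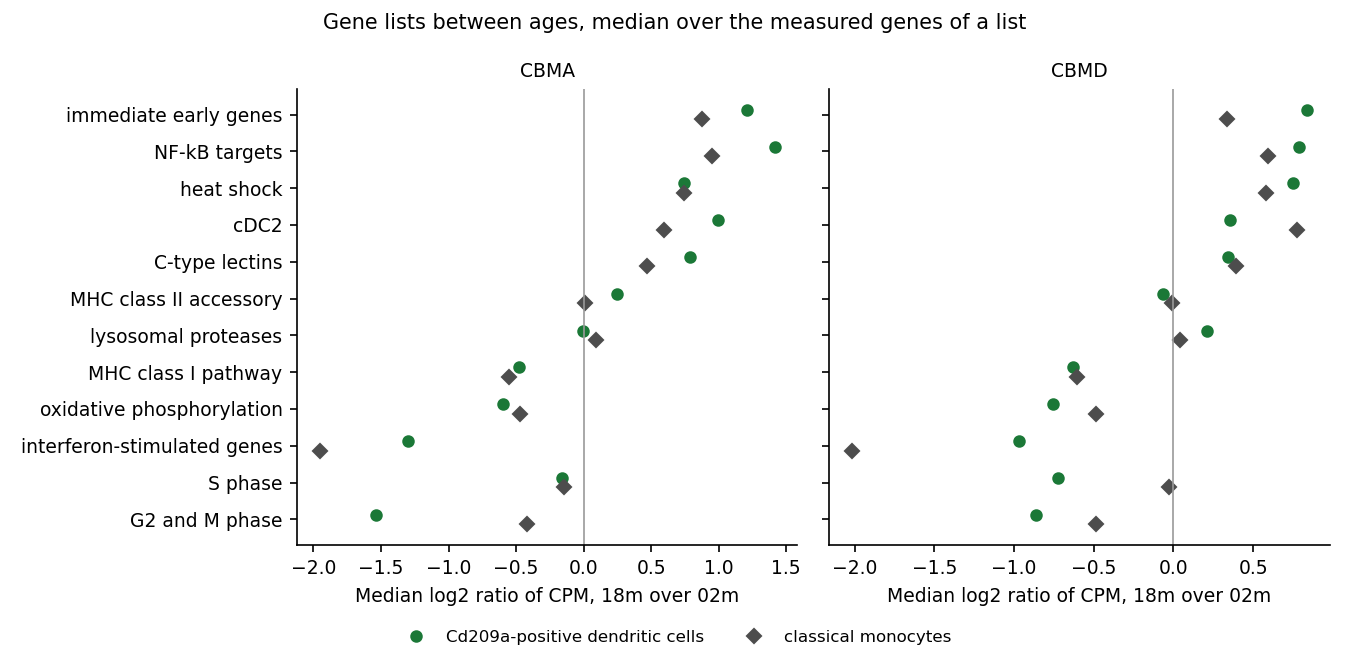
Median log2 ratio of CPM, 18m over 02m, over the measured genes of 12 lists in Cd209a+ DCs (circles) and classical monocytes (diamonds), in CBMA (left) and CBMD (right). Immediate early, NF-kB and heat shock genes lay above 0 (1.21, 1.41 and 0.74 in Cd209a+ DCs of CBMA) and G2 and M, interferon-stimulated and oxidative phosphorylation genes below 0 (-1.54, -1.30 and -0.60) at both sites.

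Genes higher at 18m at both sites were ranked by the bound of the interval nearest to 1, among those that in the 18m libraries were at least as high in Cd209a+ DCs as in other QC cells. A gene thus passed at the age at which it was high, and nothing is read from its level against other cells. Gpr132, a lipid-sensing G protein-coupled receptor, was at 23.4, 78.2 and 83.4 CPM at 02m, 12m and 18m for CBMA, with 26.7, 165 and 114 CPM for CBMD, with ratios of 3.57 (2.06 to 6.63) and 4.26 (2.63 to 7.22). The transcription factor Trps1 had ratios of 3.14 and 3.43, and Cd93, a C-type lectin-like receptor, had 3.36 and 3.89. At 02m Trps1 was below other QC cells, at 62.3 CPM in Cd209a+ DCs and 79.7 CPM in other cells of CBMA, and so was Cd93, at 28.1 and 32.8 CPM. Each of these 3 genes was above its 02m level at both 12m and 18m. Other QC cells also held more of them at 18m. In CBMA, Gpr132, Trps1 and Cd93 were there at 41.9, 153 and 71.4 CPM, against 14.7, 79.7 and 32.8 CPM at 02m. In CBMD they were at 51.3, 163 and 78.0 CPM, against 28.6, 87.8 and 33.4 CPM. These rises were thus not particular to Cd209a+ DCs. Gm42418 was at 42025, 8099 and 84698 CPM at 02m, 12m and 18m for CBMA, with 25811, 11678 and 106760 CPM for CBMD, so it was lowest at 12m and did not rise steadily with age. It overlaps a ribosomal RNA repeat, and its UMIs take up part of every total.

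Genes lower at 18m at both sites passed the same limit in the 02m libraries, where they were high. Plac8 was at 2768, 771 and 1008 CPM at 02m, 12m and 18m for CBMA, with 2461, 1246 and 1072 CPM for CBMD. Lgals1, the galectin-1 gene, was at 1384, 341 and 459 CPM for CBMA, with 1072, 472 and 298 CPM for CBMD. Ly6a, an interferon-inducible surface protein gene, had ratios of 0.348 (0.244 to 0.491) in CBMA and 0.259 (0.160 to 0.406) in CBMD, and at 18m it was below other QC cells, at 49.3 CPM in Cd209a+ DCs and 79.3 CPM in other cells of CBMA. In each of them both older libraries stood below the 02m library of their site. Other QC cells also held less Plac8 at 18m, at 697 CPM against 2033 CPM at 02m in CBMA and 684 against 1821 CPM in CBMD. Their Lgals1 was at 279 against 950 CPM in CBMA and 279 against 632 CPM in CBMD. Lower Plac8 and Lgals1 were thus not particular to Cd209a+ DCs. Ly6a in other QC cells was higher at 18m, at 79.3 against 50.3 CPM in CBMA and 53.7 against 34.9 CPM in CBMD. Of the S100 family, calcium-binding proteins, 6 of 8 were lower at 18m in CBMA and 5 of 7 in CBMD, among them S100a4 (0.624 and 0.386) and S100a10 (0.478 and 0.373). S100a9 is a neutrophil transcript and went with the neutrophil sum given above.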

How the data were processed

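Cells of 6 libraries were captured with the 10x Genomics 3' v3 chemistry, 1 library for each age and site, after dura and periosteum were removed, bone was digested with collagenase and dispase, and red and dead cells were depleted. Digestion can change stress genes and which cells reach the droplets. The authors aligned and counted reads with Cell Ranger 5.0.1 on GRCm38, and the deposited matrices give unnormalized UMI counts of 55450 genes in 43420 barcodes. The limits in the study's methods (500 to 5000 genes, over 500 UMIs, under 25% mitochondrial UMIs) were applied and left 37576 cells. Files held 0 columns of other samples. A symbol given to more than 1 ID (108) was kept apart by ID.

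UMIs of gated cells were summed per library and scaled to CPM. Ratios between ages have exact 95% Poisson intervals and shares exact binomial (Clopper-Pearson) intervals, both for counting error only. Gates were compared by edgeR 4.0.16 (R 4.3.3), quasi-likelihood, after its filter on low counts, with the library as a block. The block pairs gates of the same suspension and so the same mice. On simulated counts the same steps were tested with known changes. Alternatives were DESeq2 1.42.0, other size factors, no filter, no block, other gate limits, doublets removed and libraries left out. Cells were read and scored with scanpy 1.11.5 in Python 3.11.15, intervals came from scipy 1.17.1 and tables from pandas 2.3.3 and numpy 2.4.6, and matplotlib 3.10.9 drew the plots. Scrublet's automatic threshold marked 196 cells (0.522%), so the highest scores at 0.8% per 1000 barcodes were taken for the alternative, and doublets stayed in the main values. Promoters are RefSeq sequences, which 504 of 656 list genes matched by symbol.

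The rule for the cells and the 40 gene lists were chosen with earlier results of these data known, so list counts are not independent support. Named genes are members of these lists by group. For each pair of gates they also include the 10 largest differences in each direction among called genes with at least 50 CPM in the higher gate and 1 direction in every library. For age they include the 12 highest and 12 lowest genes by interval bound among genes at least 1.5-fold changed the same way at both sites, at or above the level of other QC cells in the library where they were higher. Genes of the gates, the mitochondrial genome and the sex chromosomes were left out of these ranks, and not every gene so named is printed. Camp, Xcr1 and other single markers were named to describe the libraries. Some list genes are not reported here.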

Additional observations from a re-analysis of the deposited data

Results flagged for a closer look

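For 6 genes the UMI sums of Cd209a+ DCs moved in opposite directions with age at the CBMA and CBMD sites, each with an interval that excluded 1. With 1 library per age and site the difference was not tested, and it holds for these libraries only.

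Mgl2, the lectin gene, had a ratio of 18m over 02m of 3.63 (2.93 to 4.54) in CBMA and 0.372 (0.304 to 0.453) in CBMD. Taken as the mean over cells in place of the sum, the log2 ratio in CBMD was -0.82, against -1.43 for the sum. Gadd45b, a stress-induced signaling gene, had 1.96 (1.55 to 2.49) in CBMA and 0.537 (0.449 to 0.641) in CBMD. Ier3, an immediate early gene, had 2.37 (1.61 to 3.58) in CBMA and 0.497 (0.344 to 0.710) in CBMD, and Traf1, an adaptor induced by NF-kB, had 2.23 (1.51 to 3.38) in CBMA and 0.604 (0.434 to 0.837) in CBMD. These 3 genes thus ran against the lists that hold them in CBMD.

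The other 2 are neutrophil genes. Retnlg had a ratio of 0.302 (0.242 to 0.375) in CBMA and 1.55 (1.30 to 1.85) in CBMD, and S100a9 had 0.115 (0.108 to 0.123) in CBMA and 1.69 (1.53 to 1.87) in CBMD. They went with the sum of all 10 neutrophil genes, which was 2309 CPM at 18m and 20000 CPM at 02m in CBMA, and 2937 CPM at 18m and 1914 CPM at 02m in CBMD.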

How the results depend on the processing

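No paired analysis was possible because each age and site is 1 library and the labels number every sample as replicate 1; this holds for comparisons between ages, while those between gates were blocked by library. The share of QC cells turned round when MHC class II-high cells without Cd79a were the denominator, with ratios of 0.568 (18m over 02m) and 0.878 (12m over 02m) in CBMA and 0.613 and 0.686 in CBMD. By construction this compares other cells. With each QC cell thinned to 2000 UMIs the ratio was 3.13 for 12m over 02m in CBMA and 2.22 and 2.11 for 18m and 12m over 02m in CBMD. For Ly6c2, the thinned shares are alternatives chosen after seeing the data.

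Of genes at 18m against 12m in CBMA, 3.65% were higher and 6.48% lower with at least 200 UMIs, 11.6% were higher with at least 20 UMIs and 4.93% with sums thinned to 1 total. In CBMD 4.30% were higher and 9.08% lower with at least 200 UMIs, and 11.2% higher with at least 20. At 12m against 02m in CBMD, 14.5% were higher with at least 200 UMIs. Fewer or more low genes enter by construction.

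Without the filter on low counts, 495 genes were higher and 885 lower against monocytes, 445 and 772 against C1q-positive cells, 102 and 403 against Cd209a-zero cells, and 173 and 63 between Ly6c2-positive and Ly6c2-zero cells. Without the library block the last 2 comparisons gave 31 higher and 35 lower, and 11 higher and 15 lower. With both sites of an age summed, 434 genes were higher against monocytes and 62 lower in Ly6c2-positive cells, and without the 12m libraries 475 and 61. The cause was not tested. Leaving out 1 library at a time gave 275 to 364 higher and 300 to 399 lower against monocytes, 205 to 297 and 308 to 451 against C1q-positive cells, 41 to 74 and 89 to 147 against Cd209a-zero cells, and 48 to 88 and 31 to 56 for Ly6c2. Hba-a2, a hemoglobin gene of red cells, reversed against monocytes, at a log2 value of 0.36 without the 12m libraries and -3.29 to 0.42 without 1 library.

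Of 4159 refits of 320 single-gene differences between gates, 3969 kept direction at an adjusted p under 0.05, 188 kept direction only and 2 reversed. The 2-fold limit was not applied again here, and refits without a value for the gene were left out. Of 485 values of 64 single-gene ratios between ages, 472 moved by less than the counting error. None that was at least 1.5-fold in the main values changed direction, and smaller ratios were not checked for this. Depth limits genes with few UMIs, and pooling hides the spread between mice.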
